A study of Mus musculus with 12 samples.

Results

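The expression of 9 osteoblast lineage genes was examined in U2OS cells, a human osteosarcoma cell line. The members were 4 regulators of the lineage (the transcription factors RUNX2, DLX5 and MSX2 and the ligand BMP4), 4 genes of the matrix and its mineralisation (ALPL, SPP1, SPARC and BGLAP) and TNFRSF11B, which encodes a decoy receptor that osteoblasts secrete. They were chosen by name from textbook knowledge of bone, with earlier results of these data already known. All were found by full name among the 58735 genes of the deposited table. Their counts and medians beside those of all genes thus describe a list that was not chosen blind. Of the 9 genes, 8 passed a filter on low expression and were tested, and BGLAP did not pass it.

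The data were 12 RNA-Seq libraries in 4 groups of 3 replicates. The groups were blank U2OS cells, siSRSF1-2 and siSRSF1-3, named for the 2 siRNAs against SRSF1 that these cells received, and OE-LINC01134, in which a long non-coding RNA, LINC01134, was overexpressed. SRSF1 is an SR protein that binds RNA and takes part in splice site choice. The comparisons asked which genes changed when SRSF1 was reduced or LINC01134 was raised. No library with a control siRNA or an empty vector was among the samples, so transfection and the specific agent cannot be told apart. All groups derive from 1 cell line. How LINC01134 was raised is not given in the sources used here, and the siRNA dose and harvest time are given only for transfections placed in HOS cells, another osteosarcoma line. Nothing in the labels says that the replicates came from separate cultures, and the supplementary methods speak of 2 biological replicates per condition where the labels list 3 libraries per group. The p-values therefore measure only the spread between these libraries, which may in part be technical.

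Osteoblasts arise from mesenchymal precursors that switch on RUNX2, which with SP7 drives the genes of bone matrix. Bone morphogenetic proteins such as BMP4 signal through receptor kinases and SMAD proteins and raise RUNX2, DLX5, MSX2 and the ID genes. Maturing cells then express alkaline phosphatase (ALPL), osteopontin (SPP1), osteonectin (SPARC) and osteocalcin (BGLAP), and they restrain osteoclasts through osteoprotegerin (TNFRSF11B), which captures the osteoclast factor RANKL (TNFSF11). Osteosarcomas are bone-forming tumors, and their cell lines keep this programme to different extents.

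Levels are given as FPKM (fragments per kilobase of gene, relative to the size of the library), which allows levels of different genes to be compared per length. In bulk RNA, fewer cells of a type and less RNA per cell cannot be told apart. Coordinates are those of the deposited table, and the human genome build behind them is not named in the sources used here. Between 26237763 and 32954539 reads fell on genes per library. Groups were compared with limma on log2(FPKM + 0.1) over 17538 genes, and a gene was called higher or lower when the Benjamini-Hochberg adjusted p was under 0.05 and the log2 fold change was over 1 or under -1. SRSF1 measured 35.9, 19.8 and 20.5 FPKM in the blank libraries, 7.09, 7.46 and 7.41 with siSRSF1-2 and 3.33, 6.81 and 7.90 with siSRSF1-3. Every siRNA library therefore lay under every blank library. The fitted SRSF1 difference was called for siSRSF1-2 (log2 fold change -1.72, limma adjusted p = 0.00500) and was just short of the call for siSRSF1-3 (log2 fold change -2.09, limma adjusted p = 0.0518). LINC01134 measured 891, 1279 and 878 FPKM in the OE-LINC01134 libraries against 0.791, 0.519 and 0.497 in blank cells.

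The libraries of a group were not equally alike. Over genes with at least 20 reads in both libraries of a pair, the median squared difference was 1.88 to 2.45 times that of counting error for blank 2 with blank 3, OE-LINC01134 1 with OE-LINC01134 3 and the 3 pairs of siSRSF1-2 libraries. It was 14.3 to 47.4 times counting error in the other 7 pairs, so blank 1 and OE-LINC01134 2 stood apart from their groups and the 3 siSRSF1-3 libraries from each other. Likeness also crossed the groups. Blank 1 was at 10.7 times with OE-LINC01134 2, against 18.35 and 18.16 times with blank 2 and 3. OE-LINC01134 2 was at 17.72 and 18.02 times with OE-LINC01134 1 and 3. Replicate 3 of siSRSF1-3 was at 9.03 to 10.62 times with the siSRSF1-2 libraries, against 47.36 and 26.22 times with its replicates 1 and 2. This limits every comparison of groups, and its cause was not tested. The library size that the FPKM imply was 0.712 times the reads on genes for siSRSF1-3 replicate 1 and 0.888 times for its replicate 2, against 0.990 to 1.09 times for the other libraries. For siSRSF1-3 against blank cells, the median log2 difference over the tested genes was -0.01 as deposited, -0.26 after scaling by read totals and -0.43 after scaling FPKM to equal sums.

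Per length, SPARC and SPP1 were the most abundant members and BGLAP the least abundant. SPARC in blank cells lay above 97.2% of the genes tested and SPP1 above 95.4%. BMP4, ALPL and TNFRSF11B lay above 66.7%, 59.0% and 56.6% of these genes. RUNX2 and MSX2 were near the middle of the distribution (47.6% and 43.1%), and DLX5 lay above 7.50%. The plot of FPKM by library shows all values, and the order of the groups differed from gene to gene.

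**Figure D1:**
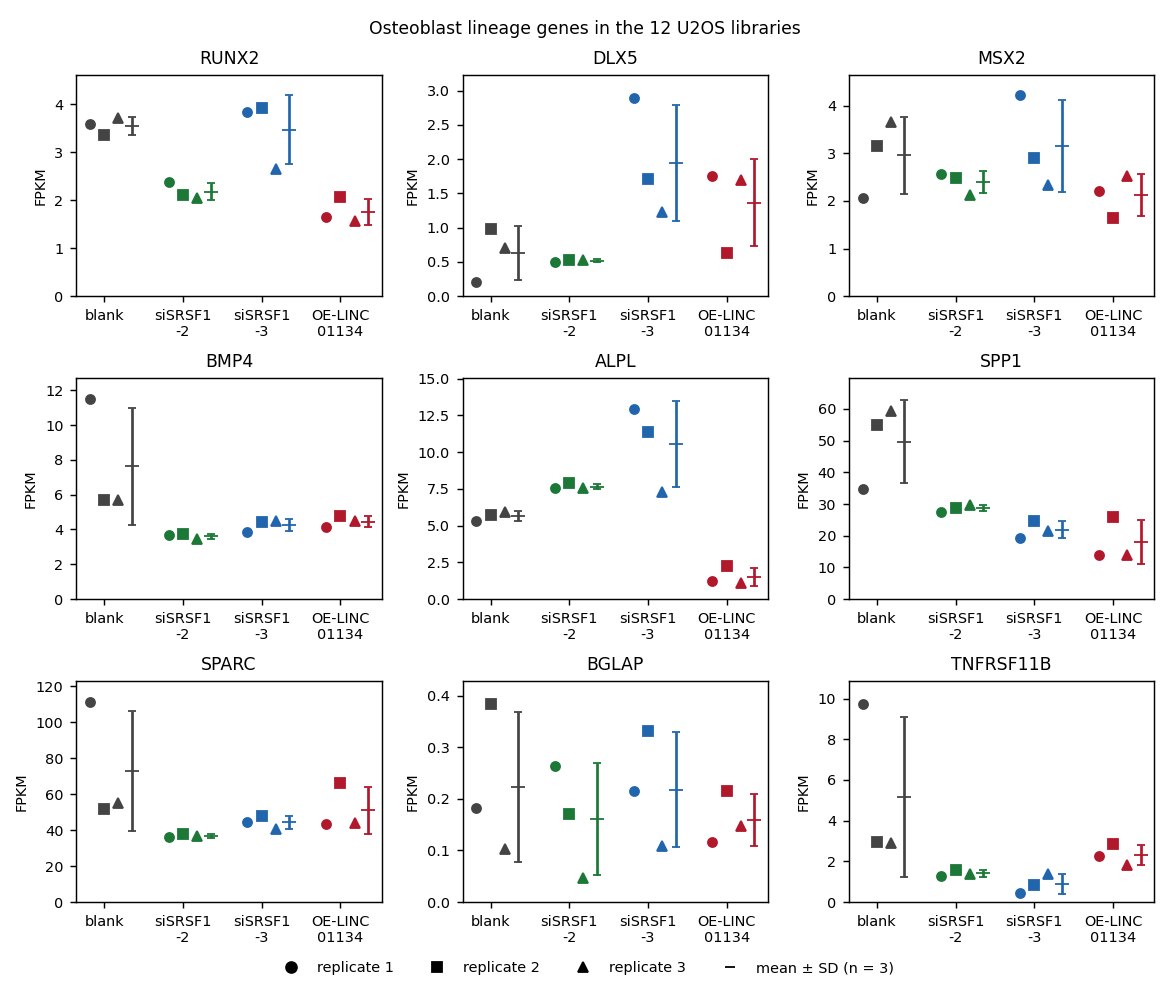
FPKM of the 9 members in each of the 12 libraries (linear axes from 0, 1 panel per gene), by group, with the mean and SD of 3 libraries beside the points. ALPL lay between 1.09 and 2.22 FPKM in OE-LINC01134 and between 7.27 and 12.9 FPKM with either siRNA, around a blank range of 5.30 to 5.94. The blank SD of SPARC, BMP4 and TNFRSF11B was wide because blank 1 lay at 111, 11.5 and 9.71 FPKM.

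RUNX2 (ENSG00000124813, chromosome 6 from 45328157 to 45664349), the transcription factor that commits cells to the osteoblast lineage, measured 3.58, 3.35 and 3.71 FPKM in the 3 blank libraries. It measured 2.38, 2.12 and 2.03 FPKM with siSRSF1-2, 3.84, 3.92 and 2.65 with siSRSF1-3 and 1.65, 2.07 and 1.55 in OE-LINC01134. All siSRSF1-2 and all OE-LINC01134 libraries lay below all blank libraries, whereas the siSRSF1-3 libraries overlapped with the blank ones on either side. The mean in OE-LINC01134 was 0.496 times the blank mean, and the fitted log2 difference was -0.98 (SE 0.160, limma adjusted p = 0.0486), just inside the fold limit for a call. Without OE-LINC01134 2 it was called lower, at -1.10 (limma adjusted p = 0.00713). With siSRSF1-2 the difference was -0.68 (SE 0.0979, limma adjusted p = 0.00615), again under the fold limit. For siSRSF1-3 the difference was -0.05, with a 95% interval of -0.55 to 0.45 and a limma adjusted p of 0.885. The groups thus ordered as blank, siSRSF1-3, siSRSF1-2 and OE-LINC01134 by mean, where only siSRSF1-3 and siSRSF1-2 did not overlap as neighbours. The siSRSF1-3 difference depended on the scaling and was -0.30 at read totals and -0.48 with FPKM scaled to equal sums. An antisense transcript with 146 reads over the 12 libraries lies across RUNX2, against 7577 reads on RUNX2 itself, and whether the counting used strand is not given in the sources used here.

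DLX5 (ENSG00000105880, chromosome 7 from 97020392 to 97024950), a homeobox factor induced by BMP signalling that acts upstream of RUNX2 and SP7, was expressed at a low level. It measured 0.207, 0.986 and 0.700 FPKM in blank cells, 0.498, 0.523 and 0.532 with siSRSF1-2, 2.89, 1.71 and 1.23 with siSRSF1-3 and 1.76, 0.628 and 1.70 in OE-LINC01134, from 10 to 99 reads per library. Every siSRSF1-3 library lay above every blank and every siSRSF1-2 library. The fitted log2 difference of siSRSF1-3 from blank was 1.59 (SE 0.545, limma adjusted p = 0.127) and that from siSRSF1-2 was 1.64 (SE 0.324, limma adjusted p = 0.0725), so neither passed the threshold. With FPKM scaled to equal sums these differences were 1.17 (95% interval -0.07 to 2.40) and 1.12. At read totals they were 1.34 and 1.36. In OE-LINC01134, replicates 1 and 3 lay above all blank libraries but replicate 2 lay within them (log2 difference 1.06, 95% interval -0.31 to 2.44, limma adjusted p = 0.285). The siSRSF1-2 libraries spanned 0.50 to 0.53 FPKM, inside the wide blank range, and their log2 difference of -0.06 had a 95% interval of -1.24 to 1.12. Without blank 1, the lowest library, the log2 differences were -0.59 with siSRSF1-2, 1.05 with siSRSF1-3 and 0.53 in OE-LINC01134.

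MSX2 (ENSG00000120149, chromosome 5 from 174724533 to 174730893), a homeobox target of BMP signalling, varied least between groups among the tested members. It measured 2.07, 3.15 and 3.66 FPKM in blank cells, 2.56, 2.49 and 2.12 with siSRSF1-2, 4.22, 2.89 and 2.35 with siSRSF1-3 and 2.20, 1.64 and 2.53 in OE-LINC01134. All 4 groups overlapped with their neighbours in the order of means. The 3 log2 differences from blank were -0.26, 0.09 and -0.44 in the order siSRSF1-2, siSRSF1-3 and OE-LINC01134, with limma adjusted p values of 0.407, 0.861 and 0.316. The 95% intervals of these differences reached from -1.06 to 0.81, and that of siSRSF1-3 turned to -0.17 at read totals and -0.35 with equal sums.

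BMP4 (ENSG00000125378, chromosome 14 from 53949736 to 53958761), a secreted ligand that drives bone formation, measured 11.5, 5.71 and 5.66 FPKM in blank cells. It measured 3.66, 3.74 and 3.45 FPKM with siSRSF1-2, 3.87, 4.42 and 4.50 with siSRSF1-3 and 4.12, 4.77 and 4.46 in OE-LINC01134. Every library of the 3 other groups lay below every blank library, and blank 1 was 2.02 times as high as the mean of the other two. The log2 difference from blank was -0.97 (SE 0.279, limma adjusted p = 0.0476) with siSRSF1-2, under the fold limit. It was -0.75 (limma adjusted p = 0.160) with siSRSF1-3 and -0.68 (limma adjusted p = 0.184) in OE-LINC01134. Without blank 1 these differences were -0.64, -0.41 and -0.35. In the 9 manipulated libraries BMP4 lay at 3.45 to 4.77 FPKM, with siSRSF1-2 below siSRSF1-3 without overlap as deposited. This order turned with the scaling, since the log2 difference of siSRSF1-3 from siSRSF1-2 was 0.23 as deposited, -0.067 at read totals and -0.33 with equal sums.

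ALPL (ENSG00000162551, chromosome 1 from 21509372 to 21578412), tissue-nonspecific alkaline phosphatase, which frees phosphate for mineral deposition, was the only member called in any comparison. It measured 5.30, 5.73 and 5.94 FPKM in blank cells and 1.21, 2.22 and 1.09 in OE-LINC01134. It measured 7.53, 7.87 and 7.55 FPKM with siSRSF1-2 and 12.9, 11.4 and 7.27 with siSRSF1-3. The OE-LINC01134 libraries all lay below and the siRNA libraries all lay above the blank libraries. In OE-LINC01134 ALPL fell, with a mean 3.76-fold lower than in blank cells (1.50 ± 0.618 against 5.66 ± 0.328 FPKM, SD, n = 3, log2 fold change -1.91, SE 0.263, limma adjusted p = 0.0403). The recovered reads were 94 to 182 in OE-LINC01134 and 441 to 584 in blank cells. OE-LINC01134 2, the library that stood apart, was 1.93 times as high as the mean of the other two. The call was lost when blank 2, blank 3, OE-LINC01134 1 or OE-LINC01134 3 was left out, with adjusted p values of 0.195, 0.202, 0.207 and 0.179 (log2 fold changes -1.90, -1.87, -1.79 and -1.73). It was also lost without the filter on low values, without a mean-variance trend and with a replicate block (adjusted p = 0.0857, 0.0543 and 0.0855), and in a fit with closely matching libraries averaged (log2 fold change -1.74, adjusted p = 0.488).

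The siRNA values of ALPL were smaller differences. The mean was 1.35 times the blank mean with siSRSF1-2 (log2 difference 0.43, SE 0.0730, limma adjusted p = 0.00984), under the fold limit. With siSRSF1-3 it was 1.86 times the blank mean, with a wider spread (log2 difference 0.85, SE 0.243, limma adjusted p = 0.0996). Scaling FPKM to equal sums took the siSRSF1-3 difference to 0.40 with a 95% interval from -0.19 that included 0. Between the siRNAs the ALPL libraries overlapped.

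SPP1 (ENSG00000118785, chromosome 4 from 87975650 to 87983426) encodes osteopontin, a phosphorylated matrix protein that binds mineral and integrins. It measured 34.7, 54.9 and 59.3 FPKM in blank cells, 27.6, 28.9 and 29.6 with siSRSF1-2, 19.4, 24.8 and 21.5 with siSRSF1-3 and 14.0, 26.1 and 13.9 in OE-LINC01134. Each of the 9 manipulated libraries lay below each blank library, and blank 1 was the lowest of the blank ones. The mean was 0.362 times the blank mean in OE-LINC01134 (log2 difference -1.49, SE 0.308, limma adjusted p = 0.0679), 0.441 times with siSRSF1-3 (log2 difference -1.15, SE 0.252, limma adjusted p = 0.0662) and 0.578 times with siSRSF1-2 (log2 difference -0.75, SE 0.202, limma adjusted p = 0.0398). None of these was called, the first 2 for their adjusted p and the third for its size. Without blank 1 the OE-LINC01134 difference was called (-1.73, limma adjusted p = 0.0289), and so it was without OE-LINC01134 2 (-1.79, limma adjusted p = 0.0117). With both left out, the OE-LINC01134 difference was -2.03 with an adjusted p of 0.000152, from 2 libraries a group. The siSRSF1-3 libraries also lay below the siSRSF1-2 libraries without overlap, by -0.39 on the log2 scale (limma adjusted p = 0.0893).

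SPARC (ENSG00000113140, chromosome 5 from 151661096 to 151687165), or osteonectin, which binds collagen and calcium, measured 111, 51.9 and 55.0 FPKM in blank cells. It measured 36.0, 38.0 and 36.6 FPKM with siSRSF1-2, 44.4, 48.0 and 40.6 with siSRSF1-3 and 43.3, 66.3 and 43.7 in OE-LINC01134. The siRNA libraries all lay below the blank libraries, and the OE-LINC01134 libraries overlapped with them. The log2 difference from blank was -0.89 (limma adjusted p = 0.0693) with siSRSF1-2, -0.62 (limma adjusted p = 0.227) with siSRSF1-3 and -0.45 (limma adjusted p = 0.408) in OE-LINC01134. Blank 1 held 2.08 times the level of the other two, and without it these differences were -0.53, -0.27 and -0.09. As deposited, every siSRSF1-2 library lay below every siSRSF1-3 library, but the order turned with the scaling. The log2 difference of siSRSF1-3 from siSRSF1-2 was 0.26 as deposited, -0.041 at read totals and -0.31 with equal sums.

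BGLAP (ENSG00000242252, chromosome 1 from 156241962 to 156243321) encodes osteocalcin, the most mature osteoblast product among the members. It measured 0.182, 0.384 and 0.103 FPKM in blank cells, 0.263, 0.171 and 0.0474 with siSRSF1-2, 0.214, 0.331 and 0.108 with siSRSF1-3 and 0.116, 0.215 and 0.147 in OE-LINC01134. These values rest on 2 to 13 reads per library, all groups overlapped, and no difference was detectable at this depth. The gene overlaps with the PMF1-BGLAP readthrough gene on the same strand (16 reads over the 12 libraries, against 75 on BGLAP) and with PAQR6 (progestin and adipoQ receptor family member 6) on the other strand at a mean of 14.1 FPKM, so its few reads are of uncertain origin. Without the filter on low values the 4 log2 differences of BGLAP ran from -0.31 to 0.32, with a lowest limma adjusted p of 0.722.

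TNFRSF11B (ENSG00000164761, chromosome 8 from 118923557 to 118952200), osteoprotegerin, measured 9.71, 2.94 and 2.89 FPKM in blank cells. It measured 1.26, 1.57 and 1.39 FPKM with siSRSF1-2, 0.433, 0.821 and 1.40 with siSRSF1-3 and 2.25, 2.85 and 1.84 in OE-LINC01134. All manipulated libraries lay below all blank libraries, those of OE-LINC01134 by little and those of siSRSF1-3 by most. The log2 difference from blank was -2.31 with siSRSF1-3 (SE 0.571, limma adjusted p = 0.0803), -1.58 with siSRSF1-2 (SE 0.471, limma adjusted p = 0.0538) and -0.91 in OE-LINC01134 (limma adjusted p = 0.265), none of them called. At read totals the siSRSF1-2 difference was called lower (-1.54, limma adjusted p = 0.0478), as it was with the filter raised to a mean FPKM of 1 (limma adjusted p = 0.0489). As deposited, the siRNA values were the largest differences of a member with either siRNA. Blank 1 was 3.33 times as high as the mean of the other two. Without it the differences were -1.74, -1.01 and -0.34, and that of siSRSF1-2 was then called lower (limma adjusted p = 0.00106). In that siSRSF1-2 fit the libraries left in each group matched closely, and the difference was smaller than with all libraries. It called 532 of all genes higher and 656 lower, against 389 and 479 with all libraries. The ligand TNFSF11 had 0 reads in each of the 12 libraries, which allows up to 3 reads per library by counting error alone.

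Counted by comparison, no tested member of 8 was called higher or lower with siSRSF1-2, where 2.22% of all genes tested were called higher and 2.73% lower. By limma without the fold limit, 4 members passed (ALPL higher, RUNX2, SPP1 and BMP4 lower), against 26.8% of all genes. With FPKM scaled to equal sums, SPP1 and BMP4 did not pass (limma adjusted p = 0.0854 and 0.0516). At read totals SPP1 did not pass (limma adjusted p = 0.0702). ALPL and RUNX2 passed at both scalings. At an unadjusted p under 0.05 with the fold limit, 1 member was lower, where 537 of all 17538 genes were higher and 601 lower. The groups did not overlap for 6 members, 1 higher and 5 lower, against 49.5% of all genes. The median log2 fold change of the 8 members was -0.72, and that of all genes was 0.02.

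With siSRSF1-3 the limma count of members called was 0 higher and 0 lower, against 0.331% and 0.929% of all genes. Without the fold limit it was also 0, against 1.28% of all genes. At an unadjusted p with the fold limit it was 1 higher and 2 lower, where 1327 of all 17538 genes were higher and 1269 lower. The groups did not overlap for 6 members, 2 higher and 4 lower, against 37.2% of all genes. Without siSRSF1-3 replicate 3, ALPL was called higher (log2 fold change 1.09, limma adjusted p = 0.0117) and TNFRSF11B and SPP1 lower (-2.67 and -1.14, limma adjusted p = 0.0237 and 0.0290). In that fit 2192 of all 17538 genes were called higher and 1992 lower, against 58 and 163 with all libraries. The members had a median log2 fold change of -0.34, against -0.01 for all genes. This median combined members on opposite sides, since DLX5 and ALPL lay at 1.59 and 0.85 and TNFRSF11B and SPP1 at -2.31 and -1.15.

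In OE-LINC01134 the count was 0 higher and 1 lower (ALPL), against 0.257% and 0.593% of all genes. Without the fold limit 2 members passed (ALPL and RUNX2), against 1.18% of all genes. The groups did not overlap for 5 members, all lower, against 30.6% of all genes. The median was -0.80 for the members and 0.05 for all genes. The count of members lower was 2 without blank 1, where 318 of all genes were called higher and 645 lower, and 3 without OE-LINC01134 2, where 511 were called higher and 1029 lower (45 and 104 with all libraries). When both of these libraries that stood apart were left out, 3 members were called lower (ALPL, RUNX2 and SPP1), each with 2 libraries a group, and 895 of all genes were called higher and 1551 lower.

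Between the siRNAs, 0 members were called by limma in either direction, against 0.0342% of all genes higher and 0.0513% lower with siSRSF1-3. Without the fold limit it was again 0, against 0.0855% of all genes. At an unadjusted p with the fold limit it was 1 higher, where 1581 of all 17538 genes were higher and 1302 lower. Without siSRSF1-3 replicate 3, DLX5 was called higher (log2 fold change 1.91, limma adjusted p = 0.00354) and TNFRSF11B lower (-1.10, limma adjusted p = 0.0235). That fit called 2807 of all genes higher and 2551 lower (6 and 9 with all libraries). It kept replicates 1 and 2, at 0.712 and 0.888 times their reads, and was run at the deposited scaling only. With all libraries and equal sums, DLX5 was at 1.12 and TNFRSF11B at -1.22. The libraries did not overlap for 5 members (4 higher and 1 lower with siSRSF1-3), against 54.6% of all genes. The members' median was 0.31 and that of all genes -0.02. RUNX2, which lay lower with siSRSF1-2 and overlapped with blank cells with siSRSF1-3, differed between the siRNAs by 0.63 (95% interval 0.16 to 1.10, limma adjusted p = 0.0850). That difference was 0.33 at read totals and 0.072 with equal sums, with a 95% interval of -0.53 to 0.67. The 3 comparisons with blank cells share the same 3 blank libraries, so their values are not independent of each other.

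**Figure D2:**
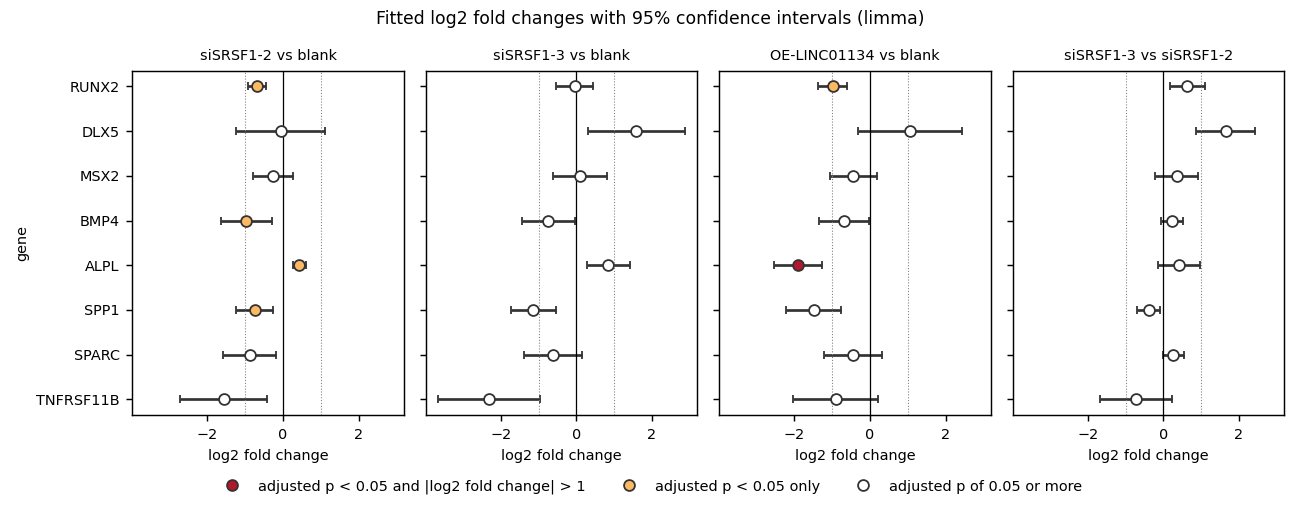
Fitted log2 fold changes of the 8 tested members in the 4 comparisons (x axis, log2 scale, limma, 3 against 3 libraries), with 95% confidence intervals as bars and dotted lines at -1 and 1. Only ALPL in OE-LINC01134, at -1.91, is filled red as called, while 4 members with siSRSF1-2 and RUNX2 in OE-LINC01134 passed the adjusted p alone.

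Single libraries differed within their groups. Blank 1 held the highest SPARC, BMP4 and TNFRSF11B of all 12 libraries and the lowest DLX5, which was 4.08 times lower than the mean of blank 2 and blank 3. Its SPP1 was 1.65 times lower than that mean, while its RUNX2 was 1.015 times and its ALPL 0.908 times that mean. OE-LINC01134 2 held more ALPL and SPP1 (1.93 and 1.87 times) and less DLX5 (0.363 times) than the mean of OE-LINC01134 1 and 3. Among the siSRSF1-3 libraries, replicate 1 had the least SRSF1 (3.33 FPKM), the most ALPL, DLX5 and MSX2 and the least TNFRSF11B, and replicate 3 had the most SRSF1 (7.90 FPKM), the least ALPL, DLX5, MSX2 and RUNX2 and the most TNFRSF11B. The scaling of that replicate 1 was also the one farthest from its read total (0.712 times), and the part of scaling or of the SRSF1 level in these values was not tested. The siSRSF1-2 libraries, in contrast, agreed to within 0.299 log2 units or less for every tested member.

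**Figure D3:**
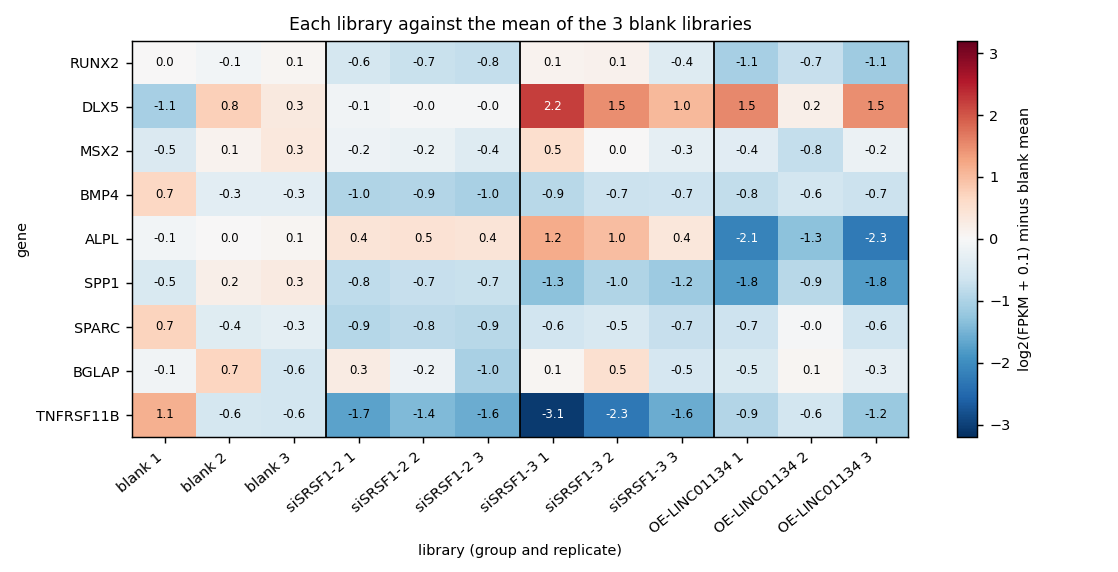
Difference of log2(FPKM + 0.1) from the mean of the 3 blank libraries for the 9 members (vertical axis) in each of the 12 libraries (horizontal axis), with lower values in blue and higher values in red. TNFRSF11B ran from 1.14 in blank 1 to -3.07 in siSRSF1-3 1, and ALPL was below 0 in all OE-LINC01134 libraries and above 0 in all siRNA libraries.

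Genes around the members were read from 8 lists: other osteogenic transcription factors, BMP ligands, receptors with SMADs, antagonists, ID target genes, bone matrix and mineralisation, osteoclast coupling, and hormone and Wnt inputs. Together with 4 lists of other lineages they held 122 genes, of which 69 were tested. In OE-LINC01134, 0 were called higher and 2 lower, against 0.257% and 0.593% of all genes tested. With siSRSF1-3 it was 0 and 5, against 0.331% and 0.929%. With siSRSF1-2 it was 0 and 11, against 2.22% and 2.73%, and between the siRNAs 0 and 0. The same shares of all genes apply to the single lists below. The 69 genes had median log2 fold changes of -0.26 (siSRSF1-2), -0.34 (siSRSF1-3) and -0.30 (OE-LINC01134). Those of all genes were 0.02, -0.01 and 0.05. Like the members, the lists were chosen with earlier results of these data known. With each library left out in turn, 8 of the 11 calls with siSRSF1-2 held in all 6 omissions. The exceptions were NOG (lost without any siSRSF1-2 library, highest adjusted p 0.0714), RUNX3 (lost without blank 2 or any siSRSF1-2 library, highest adjusted p 0.0578) and CHRDL1 (lost without siSRSF1-2 2, adjusted p 0.0607). The 3 siSRSF1-2 libraries matched closely, as did blank 2 and blank 3, so leaving 1 of them out is a weak check of these calls. Averaging closely matching libraries left 1 siSRSF1-2 value, so that setting had no spread within siSRSF1-2. Each of the 5 calls with siSRSF1-3 was lost without blank 1, blank 2, blank 3 or siSRSF1-3 2, and all but that of CCL2 also without siSRSF1-3 1, with a highest adjusted p of 0.219. Both calls in OE-LINC01134 (CCL2 and RUNX3) were lost without blank 2, blank 3, OE-LINC01134 1 or OE-LINC01134 3, with a highest adjusted p of 0.213. The log2 fold changes of these genes stayed below 0 in all of these omissions.

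Several genes of the osteoblast programme, not only late ones, were barely detected. SP7 (osterix), the transcription factor that acts after RUNX2, had 0 to 10 reads per library. IBSP (bone sialoprotein) had 0 to 1 reads, DMP1 and COL1A2 had 0 to 4 each, and SOST, a marker of osteocytes, had 0 to 3. COL1A1, the other chain of type I collagen, measured 14.1 to 39.7 FPKM. The label of an osteoblast programme thus rests here on RUNX2, ALPL, SPP1, SPARC and COL1A1, with SP7, COL1A2, IBSP, DMP1 and SOST barely detected. The programme was therefore seen only in part.

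Of the 9 tested transcription factors in the list, RUNX3, a paralog of RUNX2, was called lower in OE-LINC01134 (0.0763, 0.243 and 0.0387 FPKM against 1.18, 1.91 and 1.66 in blank cells, log2 fold change -3.03, limma adjusted p = 0.0403). It was also called lower with siSRSF1-2 (0.639, 0.734 and 0.686 FPKM, log2 fold change -1.08, limma adjusted p = 0.0134), and with siSRSF1-3 its log2 difference was -0.45. WWTR1, or TAZ, a coactivator of RUNX2, was called lower with siSRSF1-3 (log2 fold change -1.18, limma adjusted p = 0.0453). WWTR1 also lay below blank cells without overlap with siSRSF1-2 (-0.76, limma adjusted p = 0.00468) and in OE-LINC01134 (-0.93, limma adjusted p = 0.132), without a call. CBFB, the partner subunit of RUNX proteins, had log2 differences of 0.06, 0.16 and -0.08 in the order siSRSF1-2, siSRSF1-3 and OE-LINC01134. ATF4, a stress-induced factor that also acts in osteoblasts, measured 816, 579 and 381 FPKM with siSRSF1-3 against 311, 298 and 296 in blank cells, without a call (log2 difference 0.90, limma adjusted p = 0.150).

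In the BMP pathway the calls were on ligands, antagonists and targets. Of 5 tested ligands besides BMP4, BMP5 was called lower with siSRSF1-2 (1.44, 1.44 and 1.46 FPKM against 8.01, 3.69 and 4.11, log2 fold change -1.71, limma adjusted p = 0.00954). BMP5 was at -1.53 with siSRSF1-3 and -1.01 in OE-LINC01134, neither called (limma adjusted p = 0.0634 and 0.282). BMP2, the most abundant of these ligands, had a log2 difference of 0.12 with siSRSF1-2. None of the 10 receptors and SMADs was called in any comparison by limma. At an unadjusted p, 1 was lower with siSRSF1-3, where 1269 of all 17538 genes were lower, and 0 in the other 3 comparisons.

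Of 7 tested antagonists, 3 were called lower with siSRSF1-2, against 2.73% of all genes. They were SMAD6, an inhibitory SMAD that BMP signalling itself induces, NOG (noggin) and CHRDL1. SMAD6 measured 0.329, 0.253 and 0.254 FPKM with siSRSF1-2 and 0.238, 0.322 and 0.236 with siSRSF1-3, where it was also called lower, against 2.18, 1.27 and 1.27 in blank cells. Its log2 fold changes were -2.11 (limma adjusted p = 0.00422) and -2.16 (limma adjusted p = 0.0477). NOG measured 5.15, 4.78 and 4.69 FPKM with siSRSF1-2 against 30.5, 13.1 and 11.4 in blank cells (log2 fold change -1.75, limma adjusted p = 0.0180). The log2 fold change of CHRDL1 with siSRSF1-2 was -1.34 (limma adjusted p = 0.0159). With siSRSF1-3, NOG and CHRDL1 were at -1.05 and -1.37 without a call (limma adjusted p = 0.129 and 0.147). In OE-LINC01134 they were at -0.22 and -0.42. FST (follistatin), the most abundant antagonist, was not called in any comparison.

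Of the 4 ID genes, transcriptional targets of BMP signalling, ID1 was called lower with siSRSF1-2. ID1 measured 58.7, 54.1 and 52.7 FPKM there, 158, 129.6 and 74.4 with siSRSF1-3, 82.5, 145 and 83.5 in OE-LINC01134 and 138, 129 and 129 in blank cells. The siSRSF1-2 difference was -1.26 on the log2 scale (limma adjusted p = 0.000698), and that of siSRSF1-3 was -0.20 (limma adjusted p = 0.686). The direct difference between the siRNAs was 1.06 for ID1 and 1.20 for ID3 (limma adjusted p = 0.0808 and 0.0712), neither of them called.

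Among 13 tested genes of bone matrix and mineralisation, ENPP1 and PDPN were called lower with siSRSF1-2 and ENPP1 with siSRSF1-3. ENPP1 makes pyrophosphate, the inhibitor of mineral growth that alkaline phosphatase removes. It measured 1.17, 1.76 and 1.70 FPKM in blank cells, 0.283, 0.194 and 0.170 with siSRSF1-2, 0.323, 0.154 and 0.235 with siSRSF1-3 and 0.194, 0.684 and 0.327 in OE-LINC01134. The ENPP1 log2 fold changes were -2.38 and -2.30 with the siRNAs (limma adjusted p = 0.00294 and 0.0457), and -1.81 in OE-LINC01134 without a call (limma adjusted p = 0.0716). PDPN (podoplanin), found on early osteocytes, was at a log2 fold change of -1.42 with siSRSF1-2 (limma adjusted p = 0.00228). PDPN was at -1.55 in OE-LINC01134 and -0.73 with siSRSF1-3, neither called (limma adjusted p = 0.0687 and 0.131). COL1A1 lay lower without overlap with either siRNA but was not called (log2 differences -0.97 and -0.76, limma adjusted p = 0.0190 and 0.116).

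In the list of osteoclast coupling factors CCL2, a chemokine that attracts osteoclast precursors, was called lower in each comparison with blank cells. It measured 4.07, 2.89 and 3.62 FPKM in blank cells, 0.491, 0.392 and 0.653 with siSRSF1-2, 0.668, 0.317 and 0.388 with siSRSF1-3 and 0.365, 0.903 and 0.317 in OE-LINC01134. The log2 fold changes were -2.58, -2.74 and -2.63 (limma adjusted p = 0.00146, 0.0356 and 0.0403), against the same blank libraries. Of the hormone and Wnt inputs, 1 of 11 was called with each siRNA, SFRP1, a secreted Wnt inhibitor. Of all genes, 2.73% were called lower with siSRSF1-2 and 0.929% with siSRSF1-3. SFRP1 measured 5.11, 3.96 and 4.01 FPKM in blank cells, 1.08, 1.12 and 1.11 with siSRSF1-2 and 0.996, 1.28 and 1.45 with siSRSF1-3. Its log2 fold changes with the siRNAs were -1.88 and -1.74 (limma adjusted p = 0.00102 and 0.0426). In OE-LINC01134 SFRP1 was at -1.68 without a call (limma adjusted p = 0.126).

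**Figure D4:**
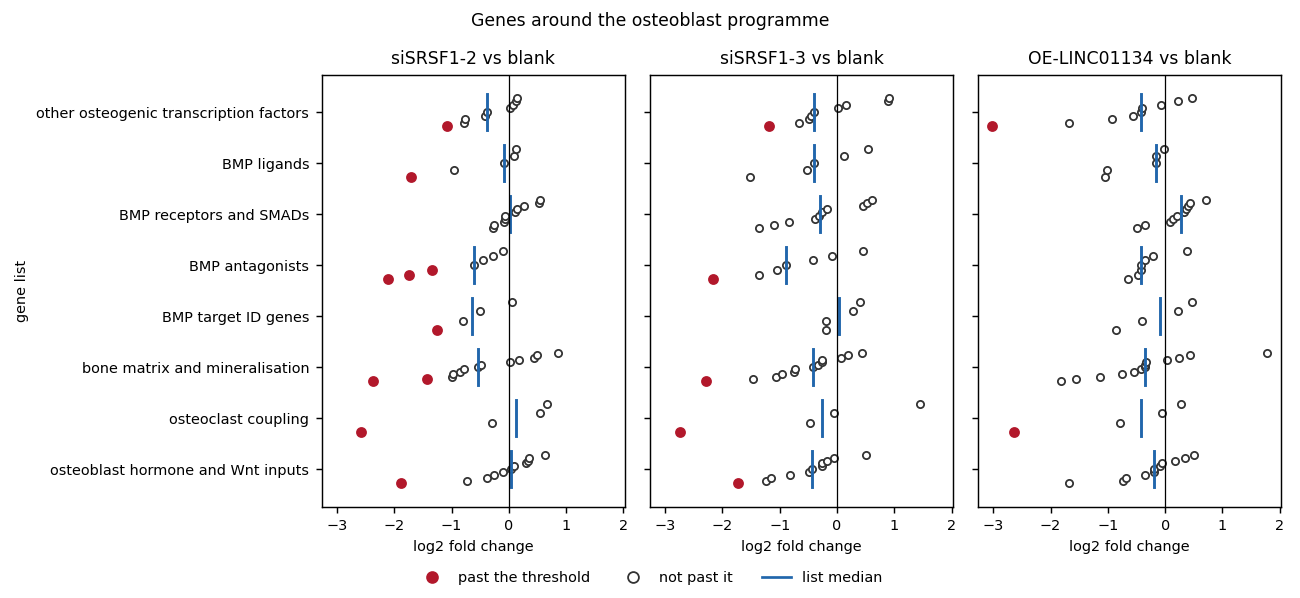
Fitted log2 fold change against blank cells (x axis, limma) of each tested gene in 8 lists around the osteoblast programme (y axis), with called genes in red, other genes open and the list median as a blue line. All called genes lie on the lower side, and the receptors and SMADs hold none.

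Most markers of other lineages were low, apart from PPARG, SOX9 and MATN3. The blank mean of MATN3, a chondrocyte gene, was 3.245 FPKM, between MSX2 (2.959) and RUNX2 (3.545). That of EPCAM, an epithelial marker, was 1.279 FPKM, above DLX5 (0.6308). SOX9, the chondrocyte regulator that stood in the list of osteogenic factors, measured 33.7, 18.4 and 18.8 FPKM in the blank libraries and lay above 88.9% of the genes tested in blank cells. Besides it, the summed FPKM of 8 chondrocyte genes was 4.95 to 5.27 in blank cells and 2.42 to 2.94 with siSRSF1-2. This sum was 2.72 to 3.56 with siSRSF1-3 and 2.21 to 3.81 in OE-LINC01134. MATN3 was called lower with siSRSF1-2 (log2 fold change -1.16, limma adjusted p = 0.00339). MATN3 was at -0.78 with siSRSF1-3 and -1.25 in OE-LINC01134, neither called (limma adjusted p = 0.0925 and 0.0886). The 6 adipocyte genes summed to 6.18 to 12.3 FPKM over the 12 libraries, of which PPARG, the adipocyte regulator, gave 4.67 to 10.9, with a blank mean of 6.79 FPKM that lay above those of ALPL, RUNX2 and MSX2, and ADIPOQ had 0 reads in every library. The 6 muscle genes summed to at most 1.61 FPKM, and MYF5 had 0 reads. The 8 genes of blood, endothelial and epithelial cells summed to at most 2.73 FPKM.

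The genes whose log2(FPKM + 0.1) followed 7 of the tested members most closely over the 12 libraries were listed as a description, without a test, because the libraries fall into 4 groups. SPP1 was followed by prostate androgen-regulated mucin-like protein 1 (r = 0.988), ALPL by cathepsin F (r = 0.979) and SPARC by collagen type XVI alpha 1 chain (r = 0.978). RUNX2 was followed by ubiquitin domain containing 1 (r = 0.967) and BMP4 by the gene ENSG00000167173 (r = 0.961). MSX2 was followed by a damage induced long noncoding RNA (r = 0.936) and DLX5 by an antisense transcript of GCNT2 (r = 0.971). None of these 7 genes was another member. Among the members themselves, r was highest for SPARC with BMP4 (0.934) and lowest for TNFRSF11B with DLX5 (-0.689). TNFRSF11B had r = 0.824 with BMP4 and 0.767 with SPARC, and blank 1 held the highest value of all of these but DLX5.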

How the data were processed

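RNA of 12 U2OS libraries had been sequenced. The authors deposited FPKM per gene and library with gene lengths and coordinates, the FPKM carrying median-of-ratios factors. The labels name mouse and mouse builds, but the identifiers are human Ensembl ones, so the genes were read as human. The human build, aligner and counting program are not given in the sources used here. The labels and the supplementary methods name different library kits, and the methods place transfection in HOS cells whereas the labels give U2OS. The methods speak of 2 biological replicates per condition, and the labels list 3. FPKM times length gave whole reads for 100% of values (within 0.001), from 26237763 to 32954539 per library.

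The test was limma 3.58.1 in R 4.3.3 (lmFit, eBayes with trend) on log2(FPKM + 0.1), over the 17538 genes whose mean FPKM reached 0.5, with 3 libraries per group and Benjamini-Hochberg adjustment over all of them. FPKM are not counts, so no count model was the main test, and limma's voom on recovered reads was an alternative. A fold change on this scale understates the change of low genes. An exact permutation test of 3 against 3 libraries cannot give a p under 0.1. The 95% intervals are limma's, from the spread between libraries, and floors of reads cover counting error only. The fit was tested on simulated data. Named were the members, SRSF1, LINC01134, called genes of each list (at most 5 per comparison, by adjusted p), up to 3 abundant genes per list and the 3 genes most like each tested member (for TNFRSF11B not reported here), with 131 of 131 symbols matched by full name. The members and lists were chosen with earlier results of these data known. As alternatives, the pseudocount was set to 1 and 0.01, the filter was dropped or raised to 1, and the following were tried: other scalings, no trend, one fit over all groups, voom, unadjusted p, no fold limit, a replicate block and each library left out. Averaging closely matching libraries and leaving out those that stood apart were added after the data were seen. No sequences were printed, because no human reference was at hand.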

Additional observations from a re-analysis of the deposited data

Results flagged for a closer look

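ALPL lay on opposite sides of blank cells in the siRNA groups and in OE-LINC01134. Every siSRSF1-2 library and every siSRSF1-3 library lay above the blank mean, with log2 differences of 0.43 and 0.85, and every OE-LINC01134 library lay below it, with a log2 fold change of -1.91. The difference between these effects was not tested.

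As deposited, DLX5 lay on opposite sides of the blank mean with the siRNAs. Every siSRSF1-3 library was above it, at a log2 difference of 1.59, and every siSRSF1-2 library was below it, at -0.059, on a blank range from 0.207 to 0.986 FPKM. The sign with siSRSF1-2 was not fixed, since it was 0.051 with FPKM rescaled to the same sum, 0.21 with closely matching libraries averaged and 0.32 without blank 2. The direct comparison of siSRSF1-3 with siSRSF1-2 gave 1.64 on the log2 scale, with a limma adjusted p of 0.0725. It was 1.12 with FPKM rescaled to the same sum. Neither gene's pattern was weighed further.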

How the results depend on the processing

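The counts of members called depended on the processing. In OE-LINC01134 the count of 1 lower was 0 without a filter, without a mean-variance trend and with closely matching libraries averaged, 2 in one fit over all 4 groups, at an unadjusted p and without a minimum fold change, and 3 with voom on recovered reads and with the libraries that stood apart left out. With siSRSF1-2 the count of 0 lower was 1 at a mean FPKM of at least 1, with each library scaled to its read total and at an unadjusted p, and it was 3 lower and 1 higher without a minimum fold change. With siSRSF1-3 it was 1 higher and 2 lower in one fit and at an unadjusted p, and 1 lower with voom. Between the siRNAs it was 1 higher in one fit and at an unadjusted p. Of all 17538 genes, an unadjusted p gave 601 lower with siSRSF1-2 and 877 lower in OE-LINC01134. It gave 1327 higher and 1269 lower with siSRSF1-3 and 1581 higher between the siRNAs. In OE-LINC01134 the count of all genes lower was 104 in the main fit, 247 with voom and 515 in one fit. Without a filter, without a trend and with averaging it was 65, 79 and 0. With siSRSF1-2 the count of all genes lower was 479 in the main fit, 371 at a mean FPKM of 1 and 426 at read totals. With siSRSF1-3, voom gave 176 of all genes higher and 411 lower, from 58 and 163. With each library left out in turn the counts of members lower ran from 0 to 1 with siSRSF1-2, 0 to 2 with siSRSF1-3, 0 to 3 in OE-LINC01134 and 0 to 1 between the siRNAs, and those of members higher from 0 to 1 with siSRSF1-3 and between the siRNAs.

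Replicate numbers did not pair the libraries, since the correlation of the deviations of same-numbered libraries ran from -0.08 to 0.04. With a replicate block the count in OE-LINC01134 was 0 lower, the ALPL adjusted p being 0.0855, and no other count of members changed. Over all genes, the block left 1 higher and 3 lower in OE-LINC01134 (from 45 and 104) and 0 and 0 with siSRSF1-3 (from 58 and 163), where one fit over all groups gave 1245 and 1177. Between the siRNAs one fit gave 1472 higher and 1259 lower (from 6 and 9). The cause was not tested.

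Of 648 values of single members under an alternative, 593 kept their direction and their side of the threshold, 32 were called only there, 8 (all ALPL in OE-LINC01134) lost the call and 15 changed sign, none of them called. Rescaled to the same sum, these were DLX5 with siSRSF1-2 (0.051), MSX2 with siSRSF1-3 (-0.35), and between the siRNAs ALPL (-0.16), SPARC (-0.31), BMP4 (-0.33) and MSX2 (-0.21). Scaled to the read total, MSX2 with siSRSF1-3 was -0.17, and between the siRNAs SPARC was -0.041 and BMP4 -0.067. DLX5 with siSRSF1-2 was 0.21 with closely matching libraries averaged and ran from -0.59 to 0.32 with a library left out (0.32 without blank 2 and 0.10 without blank 3). With siSRSF1-3, MSX2 ran from -0.14 to 0.27 and RUNX2 from -0.15 to 0.13. The sign of these small values was thus not fixed by the data. ALPL in OE-LINC01134 ranged from -2.25 to -1.44, with adjusted p values of 0.000264 to 0.488. Depth limited BGLAP and DLX5, with 2 to 13 and 10 to 99 reads per library.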

Other observations

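Apart from the genes named by rule, 3 genes of the BMP antagonist, Wnt and matrix lists were noticed after their values were seen. GREM1 (gremlin, a BMP antagonist) measured 0.0223, 1.83 and 1.96 FPKM in blank 1, 2 and 3, from 9, 761 and 936 reads, and had 0 to 9 reads in each of the other libraries. DKK1, a secreted Wnt inhibitor, measured 0.0819, 1.07 and 1.03 FPKM in the blank libraries (5, 67 and 74 reads), and 1 to 6 reads in every other library. BGN (biglycan, a matrix proteoglycan) measured 0.147, 1.19 and 1.37 FPKM in the blank libraries, 0.0568, 0.0966 and 0.0920 with siSRSF1-2, 0.374, 0.192 and 0.196 with siSRSF1-3 and 0.0141, 0.0597 and 0.0143 in OE-LINC01134. All 3 were thus higher in blank 2 and blank 3 than in blank 1 and every manipulated library, and none passed the filter on low values.

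NOG, BMP5 and BMP4 showed the reverse among the blank libraries. NOG measured 30.5, 13.1 and 11.4 FPKM and BMP5 8.01, 3.69 and 4.11 in blank 1, 2 and 3. In OE-LINC01134 1, 2 and 3, BMP5 measured 1.56, 5.70 and 1.53 FPKM and SMAD6 0.560, 2.52 and 0.547, so that the library that stood apart held the highest value of both. These values are given without an explanation.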
